A study of Mus musculus with 8 samples.

Results

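Microglia carry a set of receptors and enzymes for extracellular nucleotides, and the account here follows 10 of these genes (P2ry12, P2ry13, P2ry6, P2ry2, P2rx4, P2rx7, Entpd1, Nt5e, Adora2a and Adora3) among the 53801 genes of the deposited expression values. They were taken by gene symbol, and all 10 had a row. The cells were microglia sorted from the mouse cortex at postnatal day 30, collected 4 h after a unilateral injection into the cerebral ventricle. Mice 1 to 4 received IL-33, a cytokine of the interleukin-1 family, and mice 5 to 8 received vehicle. Each group held 2 females and 2 males, and each mouse gave 1 library. The labels name no strain, dose or sorting marker.

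ATP released by active or damaged cells acts on ion channels (P2X receptors) and, together with ADP and uridine nucleotides, on G protein-coupled P2Y receptors. The ectoenzyme CD39, encoded by Entpd1, degrades ATP and ADP to AMP, and CD73, encoded by Nt5e, turns AMP into adenosine, which acts on the adenosine (Adora) receptors. In microglia this system is known for steering process motility towards ATP through P2Y12, for phagocytosis driven by UDP through P2Y6, and for inflammasome activation through P2X7.

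Among the 10 genes 5 were higher after IL-33 (P2ry6, P2ry2, P2rx4, Adora2a and Adora3), 4 were lower (P2ry12, P2ry13, P2rx7 and Entpd1), and 1 (Nt5e) did not pass the test. The test was limma on log2 of the normalized count plus 1 with a term for sex, and a gene was called at a Benjamini-Hochberg adjusted p under 0.05 over the 15110 genes tested. The response to IL-33 was broad: 57.7% of all tested genes were called, 29.2% higher and 28.5% lower, so the 9 calls among 10 genes are to be read against that share. One of the 9, Adora2a, passed the filter on low values only through the IL-33 group, where it is high. Its call is therefore no support for the count. The filter asked for 10 normalized counts in at least 4 of 8 mice. P2ry2, at 7.57 in vehicle mouse 5, also needed IL-33 values to pass it. The median absolute log2 fold change was 1.13 over the 10 genes and 0.53 over all tested genes. Of the 10 genes 5 changed by 1 or more on the log2 scale, against 25.9% of all tested genes. Adora2a counts in both figures. In the 9 called genes, again with Adora2a, the values of the 4 IL-33 mice and the 4 vehicle mice did not overlap. That held for 52.3% of all tested genes. The 10 genes were chosen with earlier results of these data known, so these comparisons describe them and test nothing.

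**Figure D1:**
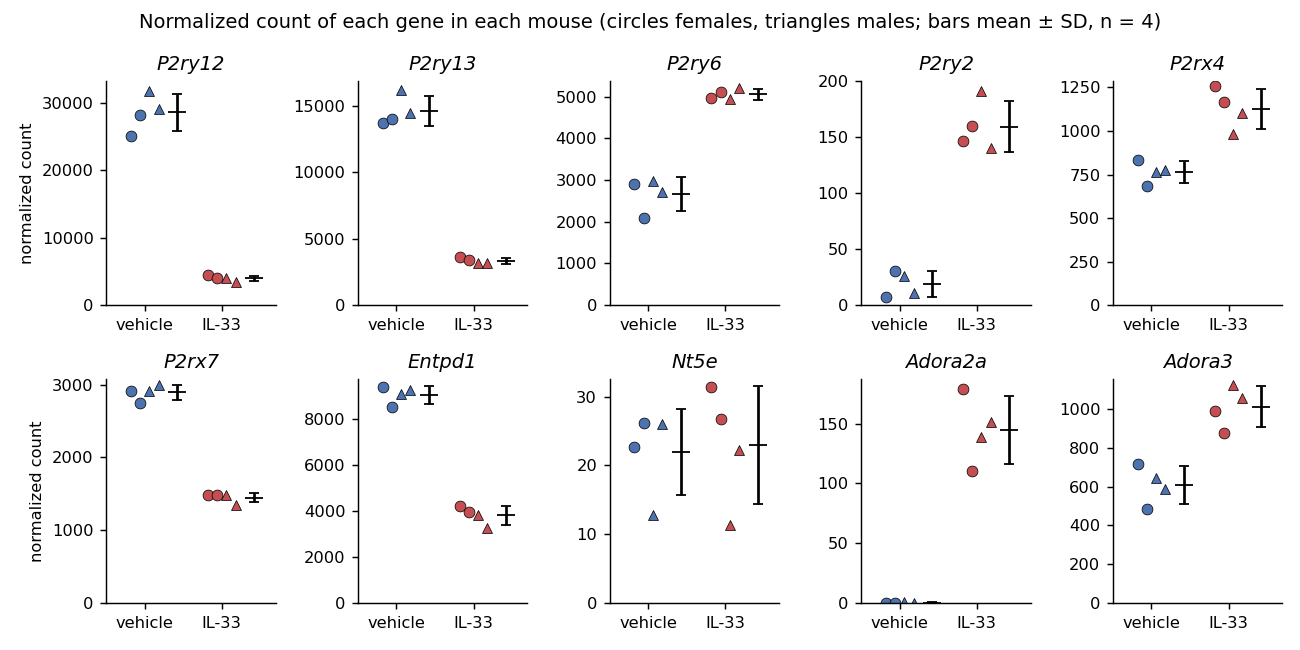
Normalized count (linear axis from 0) of each of the 10 genes in each mouse, with circles for females, triangles for males and bars for the mean ± SD of 4 mice. The groups are apart in 9 panels and overlap for Nt5e, and Adora2a lies at or near 0 in all vehicle mice.

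Upstream sequence (RefSeq, GRCm38.p6) was at hand for 8 of the 10 genes. The windows of P2ry12, P2ry13, P2rx7 and P2rx4 were searched, and 3 of up to 250 bases before the transcription start are given, written 5′ to 3′ on the strand of the gene. P2ry13 is shown as one of the ADP receptors that fell, and P2rx7 with P2rx4 as neighbouring genes that moved in opposite directions. Capitals mark matches to the letters searched on both strands, which were GGGNNNNNCC (used for NF-kB), TGANTCA (used for AP-1), GAGGAA (a core of PU.1 sites) and TGACGT (a core of CRE sites).
P2ry13, chr3:59210883-59211132, minus strand: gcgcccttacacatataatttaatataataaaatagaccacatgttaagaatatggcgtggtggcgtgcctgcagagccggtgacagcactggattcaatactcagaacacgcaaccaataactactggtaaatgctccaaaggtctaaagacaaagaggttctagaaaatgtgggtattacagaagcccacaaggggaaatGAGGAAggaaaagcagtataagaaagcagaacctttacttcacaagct
P2rx7, chr5:122643677-122643910, plus strand: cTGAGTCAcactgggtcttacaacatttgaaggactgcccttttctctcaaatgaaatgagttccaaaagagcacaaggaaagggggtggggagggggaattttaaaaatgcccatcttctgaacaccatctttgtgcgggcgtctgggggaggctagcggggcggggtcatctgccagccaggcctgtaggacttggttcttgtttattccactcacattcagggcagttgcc
P2rx4, chr5:122707294-122707543, plus strand: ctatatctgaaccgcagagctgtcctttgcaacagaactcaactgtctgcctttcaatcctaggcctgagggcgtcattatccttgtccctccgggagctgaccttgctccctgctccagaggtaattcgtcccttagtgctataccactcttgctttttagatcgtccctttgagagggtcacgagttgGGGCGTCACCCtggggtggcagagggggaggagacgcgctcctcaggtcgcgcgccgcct

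The P2ry12 window, which is not printed because it overlaps annotated exon sequence of Med12l, held 1 match to GGGNNNNNCC beginning 51 bases before its RefSeq start. The P2ry13 window held 1 GAGGAA beginning 48 bases before the RefSeq start. The P2rx7 window, whose last 16 bases lie in an annotated exon and are left out, held TGAGTCA at 249 bases. The P2rx4 window held 2 overlapping matches to GGGNNNNNCC on opposite strands. Of 32851 RefSeq windows of 250 bases, 23.3% held GAGGAA, 6.75% held TGANTCA, 45.8% held GGGNNNNNCC and 6.47% held TGACGT. The P2rx7 window was shorter than these, with 234 bases searched. These matches describe letters and not binding.

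The G protein-coupled ADP receptors fell furthest. P2ry12 (ENSMUSG00000036353, chromosome 3, 59216272 to 59262871, minus strand, GRCm38), the Gi-coupled ADP receptor widely used to mark homeostatic microglia, had normalized counts of 25129, 28193, 31785 and 29088 in vehicle mice 5 to 8 and of 4404, 3976, 4096 and 3420 in IL-33 mice 1 to 4. Every IL-33 mouse lay far below every vehicle mouse. The mean fell from 28549 ± 2744 to 3974 ± 411 (SD, n = 4 each), to 13.9% of the vehicle level, with a log2 fold change of -2.85 (SE 0.085, 95% interval -3.03 to -2.66, adjusted p = 5.74e-14). By level per kilobase of merged exons P2ry12 ranked 15 among 15101 genes in vehicle mice and 118 after IL-33. Its fall was the 183rd largest among the 15110 tested genes. In bulk samples, fewer cells with a transcript and less of it per cell cannot be told apart.

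P2ry13 (chromosome 3, 59207892 to 59210882, minus strand), a second Gi-coupled ADP receptor, had normalized counts of 13744, 14032, 16218 and 14468 in vehicle mice 5 to 8 and of 3637, 3375, 3147 and 3183 in IL-33 mice 1 to 4. The groups were again far apart. Its mean fell from 14615 ± 1109 to 3336 ± 225 (SD, n = 4 each), with a log2 fold change of -2.13 (SE 0.074, interval -2.29 to -1.97, adjusted p = 2.19e-13). Its fall between the groups was smaller than that of P2ry12. The ratio of P2ry12 to P2ry13 within a mouse was 1.95 ± 0.0857 in vehicle mice and 1.19 ± 0.0937 in IL-33 mice (SD, n = 4 each). The lowest vehicle ratio, 1.83, was above the highest IL-33 ratio, 1.30.

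The uridine nucleotide receptors moved the other way. P2ry6 (chromosome 7, 100937630 to 100974649, minus strand), the Gq-coupled UDP receptor, had normalized counts of 2903, 2093, 2986 and 2713 in vehicle mice 5 to 8 and of 4956, 5105, 4944 and 5217 in IL-33 mice 1 to 4. Vehicle mouse 6 was the lowest, and the IL-33 mice lay close together. The mean rose from 2674 ± 404 to 5055 ± 130 (SD, n = 4 each), or 1.89-fold, with a log2 fold change of 0.93 (SE 0.091, interval 0.74 to 1.12, adjusted p = 1.40e-07).

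P2ry2 (chromosome 7, 100996568 to 101012866, minus strand), a receptor for ATP and UTP, was scarce in vehicle mice 5 to 8, at normalized counts of 7.57, 30.5, 26.5 and 11. In IL-33 mice 1 to 4 it stood at 147, 159.7, 191 and 140.2. All IL-33 mice were several times above the highest vehicle mouse. These values rest on 77 reads in the vehicle group and 635 in the IL-33 group. The mean rose 8.43-fold, from 18.9 ± 11.3 to 159.5 ± 22.5 (SD, n = 4 each), with a log2 fold change of 3.20 (SE 0.37, interval 2.40 to 4.01, adjusted p = 7.22e-06). Even then its level of 40.6 per kilobase was a small fraction of the 1751 per kilobase of P2ry6.

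The ATP-gated channels of the set moved in opposite directions. P2rx7 (chromosome 5, 122643911 to 122691432, plus strand), the channel that opens at high ATP and is known upstream of the NLRP3 inflammasome, had normalized counts of 2911, 2745, 2917 and 2999 in vehicle mice 5 to 8 and of 1477, 1481, 1485 and 1349 in IL-33 mice 1 to 4. The spread within each group was small beside the gap between the groups. The mean fell from 2893 ± 106 to 1448 ± 66.2 (SD, n = 4 each), to 50.1% of the vehicle level, with a log2 fold change of -1.0 (SE 0.072, interval -1.15 to -0.85, adjusted p = 2.43e-09).

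P2rx4 (chromosome 5, 122707544 to 122729738, plus strand), a channel of higher ATP affinity known from microglia in neuropathic pain, had normalized counts of 834, 684, 766 and 774 in vehicle mice 5 to 8 and of 1258, 1166, 985 and 1104 in IL-33 mice 1 to 4. The lowest IL-33 mouse was above the highest vehicle mouse. The mean rose from 764 ± 61.6 to 1128 ± 115 (SD, n = 4 each), or 1.48-fold, with a log2 fold change of 0.56 (SE 0.091, interval 0.37 to 0.75, adjusted p = 4.78e-05). The ratio of P2rx7 to P2rx4 counts within a mouse was 3.80 ± 0.221 in vehicle mice and 1.29 ± 0.149 in IL-33 mice (SD, n = 4 each).

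The ectoenzymes were far apart in level. Entpd1 (CD39; chromosome 19, 40612366 to 40741602, plus strand) had normalized counts of 9367, 8493, 9082 and 9237 in vehicle mice 5 to 8 and of 4202, 3945, 3822 and 3237 in IL-33 mice 1 to 4. The groups did not overlap, and IL-33 mouse 4 was the lowest. The mean fell from 9045 ± 386 to 3801 ± 408 (SD, n = 4 each), to 42% of the vehicle level, with a log2 fold change of -1.26 (SE 0.077, interval -1.42 to -1.09, adjusted p = 2.93e-10). Endothelial cells also carry CD39, and the summed normalized count of 8 endothelial markers ran from 345 to 471 in vehicle mice and from 238 to 323 in IL-33 mice. Of the 8 markers 3 were tested, of which Pecam1 (-0.61 on the log2 scale) and Kdr (-1.85) fell and Cdh5 rose (1.77), while Cldn5 had 1 read in the vehicle group and 3 in the IL-33 group. Their part in the result was not tested.

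Nt5e (CD73; chromosome 9, 88327197 to 88372092, plus strand) was scarce in both groups, with normalized counts of 22.7, 26.2, 12.8 and 26 in vehicle mice 5 to 8 and of 31.4, 26.8, 11.3 and 22.3 in IL-33 mice 1 to 4. The groups overlapped fully. The means were 21.9 ± 6.28 and 22.9 ± 8.62 (SD, n = 4 each), from 91 and 90 reads, and the log2 fold change was 0.03 (SE 0.33, adjusted p = 0.954). Its 95% interval, -0.67 to 0.72, leaves room for a change of either sign that this depth could not show. Per kilobase, Entpd1 made up 99.8% of the sum of both transcripts in vehicle mice and 99.6% in IL-33 mice.

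Both adenosine receptors of the set were higher after IL-33. Adora2a (chromosome 10, 75316877 to 75334784, plus strand), a Gs-coupled receptor that raises cAMP, had 0 reads in vehicle mice 5, 6 and 8 and 1 read in mouse 7, a normalized count of 0.915. In IL-33 mice 1 to 4 it stood at 178.5, 110.1, 138 and 151. It was thus at the edge of detection in one group and readily counted in every mouse of the other. The sums were 1 of 32806198 reads and 570 of 31993955 reads, or 0.0305 RPM (reads scaled to library size) (95% Poisson interval 0.000772 to 0.170) against 17.8 (16.4 to 19.3), a ratio of 584 with a counting interval of 104 to 23125. The fitted log2 fold change of 6.93 (SE 0.38, adjusted p = 6.02e-11) depends on the pseudocount, and it was 4.82 with a pseudocount of 5. Since only the IL-33 mice brought the gene past the filter, the read counts and not this test carry the description.

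Adora3 (chromosome 3, 105870858 to 105908926, plus strand), a Gi-coupled adenosine receptor long used in mice as a microglial transcript, had normalized counts of 715, 486, 647 and 591 in vehicle mice 5 to 8 and of 992, 880.0, 1126 and 1060 in IL-33 mice 1 to 4. The highest vehicle mouse stayed below the lowest IL-33 mouse. The mean rose from 610 ± 96.8 to 1014 ± 105 (SD, n = 4 each), or 1.66-fold, with a log2 fold change of 0.74 (SE 0.11, interval 0.51 to 0.97, adjusted p = 1.46e-05). Adora3 shares 779 exon bases with Tmigd3 on the same strand, so that reads there could not be assigned to one of them with certainty. Tmigd3 fell from 346 ± 16.1 to 145 ± 40.8 (SD, n = 4 each), a log2 fold change of -1.29 (adjusted p = 7.84e-07).

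The table of the authors' own comparison listed 9 of the 10 genes with the same sign as the test here, and Nt5e was not among its 7029 genes. In the authors' deposited table the log2 fold change was -2.84 for P2ry12, -2.13 for P2ry13, 3.10 for P2ry2 and 8.96 for Adora2a.

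**Figure D2:**
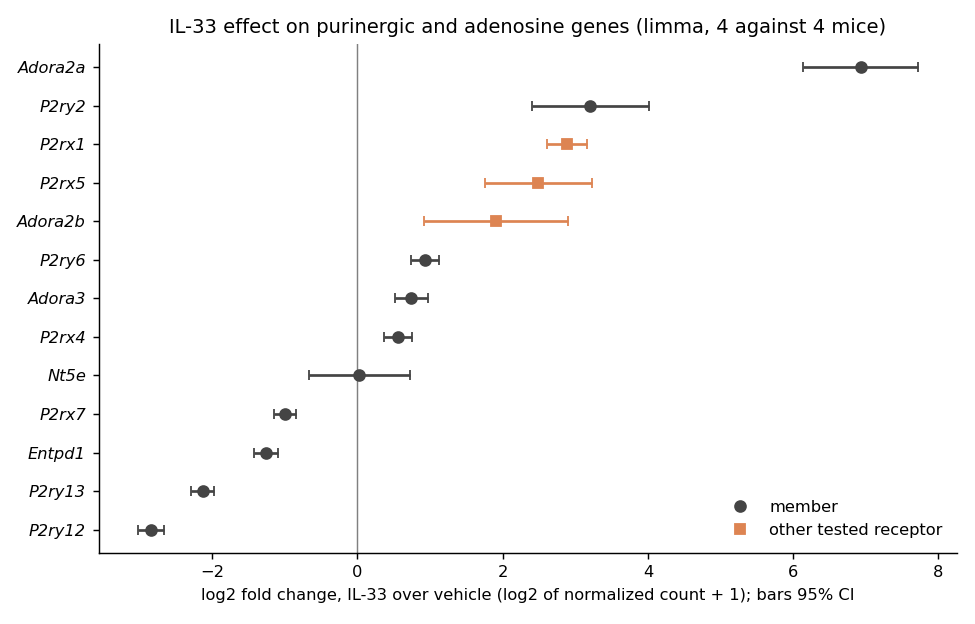
Log2 fold change of IL-33 over vehicle with its 95% interval for the 10 genes (circles) and for 3 other tested receptors of the same families (squares), from 4 against 4 mice. P2ry12 is lowest at -2.85, Adora2a highest at 6.93, and only the interval of Nt5e spans 0.

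Set against each other per kilobase of merged exons, the receptor transcripts changed in order as well as in amount. The sum of the 15 P2Y and P2X receptor genes fell from 18565 ± 1528 to 5373 ± 257 normalized counts per kilobase (SD, n = 4 each), to 28.9% of the vehicle sum. P2ry12 made up 60.4 ± 1.49% of that sum in vehicle mice and 29.0 ± 2.02% in IL-33 mice. The share of P2ry13 went from 31.2 ± 0.652% to 24.5 ± 0.594%. P2ry6 went from 5.0 ± 0.774% to 32.7 ± 2.14% and stood above P2ry12 in 3 of 4 IL-33 mice and in 0 of 4 vehicle mice. Of the channels, P2rx7 went from 2.62 ± 0.210% to 4.52 ± 0.185% although its own level fell, because the sum fell more. P2rx4 went from 0.590 ± 0.0775% to 2.99 ± 0.210%. These shares carry no test. Among the 4 adenosine receptors the sum rose from 167 ± 26 to 328 ± 34.1 per kilobase, with Adora3 at 97.8% and then 83.1% of it and Adora2a at 0.0426% and then 14.4%.

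**Figure D3:**
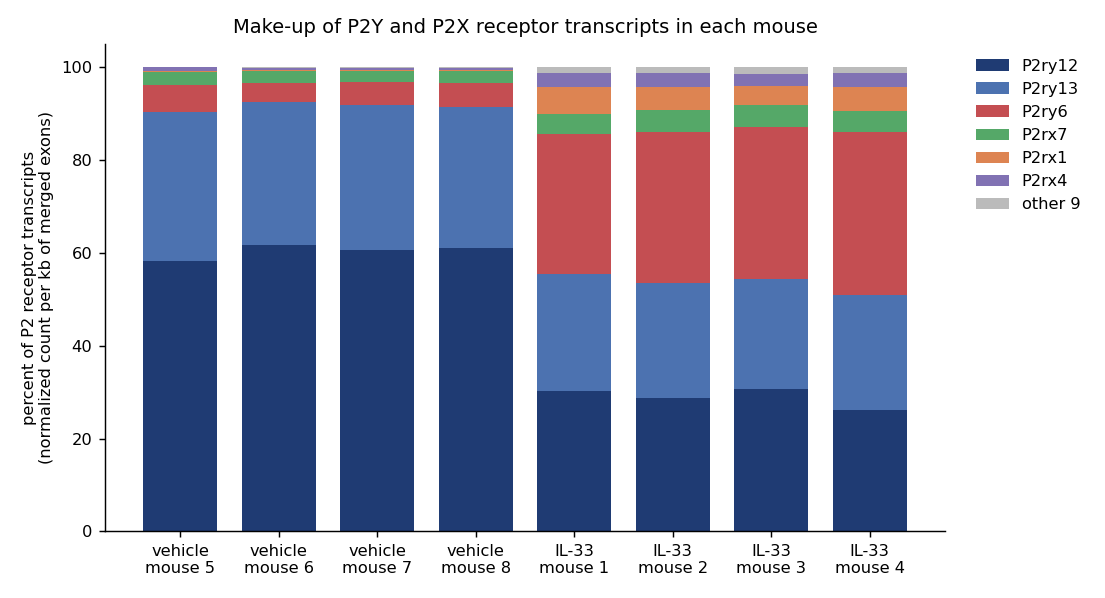
Percent of the summed P2Y and P2X receptor level (normalized count per kilobase of merged exons) held by each gene in each mouse, as stacked bars. P2ry12 and P2ry13 fill most of each vehicle bar, and P2ry6 takes 32.7% on average in the IL-33 mice against 5.0% in the vehicle mice.

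The P2 receptor genes of the set lie in pairs on the chromosomes, each pair on the same strand with 0 protein-coding genes between its members. P2ry12 and P2ry13 are 5.39 kb apart and both fell. P2ry6 and P2ry2 are 21.9 kb apart and both rose, by different amounts. P2rx7 and P2rx4 are 16.1 kb apart, and the first fell while the second rose. The P2ry12 and P2ry13 pair lies inside Med12l, a Mediator subunit gene on the opposite strand. It shares 9 exon bases with P2ry12 and 0 with P2ry13. Med12l fell from 3140 ± 390 to 774 ± 125 (SD, n = 4 each), a log2 fold change of -2.02 (adjusted p = 3.33e-10). The counting is not stated to use strand, so reads of Med12l and of the receptors inside it could not be told apart where they overlap. P2ry14, another P2Y receptor of that cluster, stayed at 5.34 ± 4.43 and 5.53 ± 1.49 (SD, n = 4 each) and was too low to be tested.

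**Figure D4:**
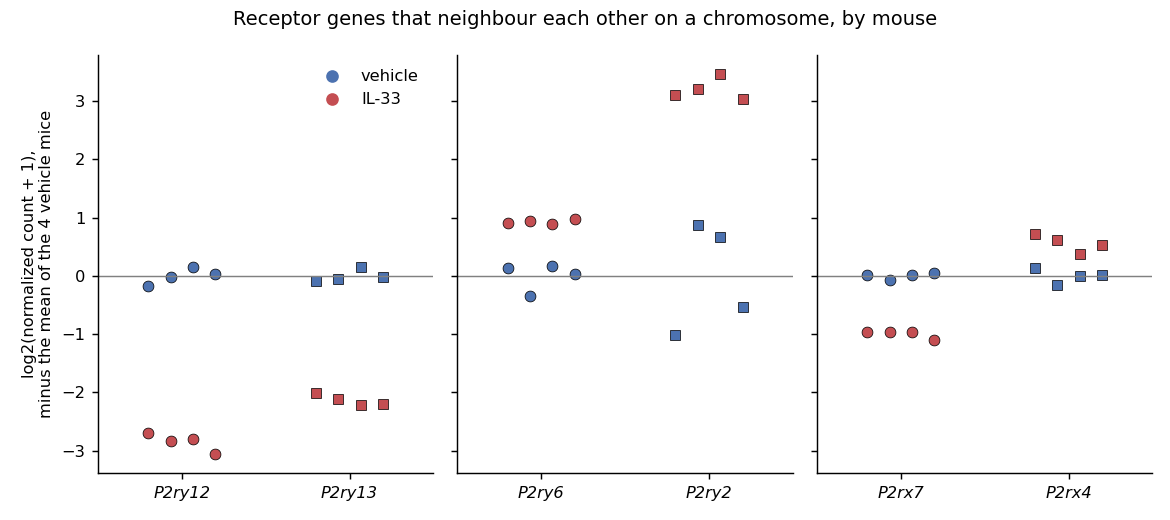
Level of each gene of the 3 neighbouring pairs in each mouse, as log2 of the normalized count plus 1 minus the mean of the 4 vehicle mice. The IL-33 mice lie below 0 for P2ry12, P2ry13 and P2rx7 and above 0 for P2ry6, P2ry2 and P2rx4.

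The mice did not keep 1 order across the 10 genes. IL-33 mouse 1 was the highest of its group in 6 genes, and IL-33 mice 3 and 4 were each the lowest in 4. Vehicle mouse 6 was the lowest of its group in 5 genes and the highest in 2. The spread within a group was smallest for P2ry6 in IL-33 mice, with an SD of 2.57% of the mean, and among the 7 genes with a mean above 500 in both groups it was largest for Adora3 in vehicle mice, at 15.9%.

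Differences between the sexes did not pass the test in these genes. Of the 10, 0 were called between females and males by limma, edgeR or DESeq2, and by limma 0 had an unadjusted p under 0.05, against 0.0596% of all tested genes called and 5.03% at that unadjusted p. Whether IL-33 acted differently in females and males was tested as an interaction, which was called for 0 of the 10 by the same tools and for 0.00662% of all tested genes by limma. By limma 2 of the 10 had an unadjusted p under 0.05, which 8.31% of all tested genes had. P2ry12 had a log2 fold change of -2.67 in females and -3.02 in males, a difference of 0.35 (SE 0.14, adjusted p = 0.502). P2ry13 had one of -1.99 in females and -2.27 in males, a difference of 0.29 (SE 0.12, adjusted p = 0.547). With 2 mice per treatment and sex these differences did not pass the test.

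By the rule for the genes most like P2ry12 over the 8 mice, the smallest root mean square difference of log2 values centred on the vehicle mean among 10440 genes belonged to Nrp1, at 0.0697. Nrp1, a co-receptor for semaphorins and VEGF, went from 781 ± 60.3 to 109 ± 9.77. Slc2a5, a fructose transporter, followed at 0.121 and Rhobtb1 at 0.135.

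The other receptors of the same families were mostly scarce. P2rx1, an ATP-gated channel best known from platelets and smooth muscle, rose from 94.2 ± 18.1 to 705 ± 132 (SD, n = 4 each), a log2 fold change of 2.89 (adjusted p = 6.18e-12), and by share of the P2 receptor sum it reached 4.98%. P2rx5 and Adora2b, named after their values were seen, also rose, by 2.49 and 1.90 on the log2 scale from vehicle means of 11.2 and 3.77. Adora2b, at 0.915 to 6.73 in vehicle mice and 11.9 to 18.3 in IL-33 mice, was likewise tested only because of its IL-33 values. P2rx5, at 4.21 to 16.4 in vehicle mice and 56.5 to 65.9 in IL-33 mice, also needed its IL-33 values to pass the filter. The other 8 receptors of these families did not reach the filter on low values.

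The wider pathway was drawn from lists of 127 genes, of which 93 passed the filter on low values, 28 rose, 48 fell and 17 were not called. Each count of this kind is to be set beside the shares over all tested genes, 29.2% higher and 28.5% lower. The median log2 fold change was -0.33 over the 93 genes and 0.02 over all tested genes. Among the 4 other tested ectoenzymes 0 rose and 2 fell, Entpd6 (-0.53 on the log2 scale) and Enpp1 (-0.41). The call of Enpp1 was lost without any one of IL-33 mice 2, 3 and 4 and vehicle mice 7 and 8, at adjusted p from 0.0526 to 0.189, with no filter (0.0813), with eBayes without trend and robust (0.05005) and in females alone (0.523). That of Entpd6 was lost in females alone (0.281). Among 14 genes of adenosine uptake and metabolism 6 rose and 6 fell. Xdh, which forms uric acid at the end of purine breakdown, rose from 6.58 ± 3.45 to 144 ± 20.1 (log2 fold change 4.38) and was mostly below the filter in vehicle mice, and Slc29a3, a nucleoside transporter of lysosomes, fell from 7542 ± 355 to 2655 ± 117 (-1.51). Slc29a2, a nucleoside transporter of the cell surface, rose by 1.40 on the log2 scale.

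Of 6 tested genes tied to ATP release 2 rose and 3 fell, beside 29.2% and 28.5% of all tested genes. Among them the vesicular nucleotide transporter Slc17a9 fell by 1.33 on the log2 scale, Calhm2 fell by 1.21 and the exporter Abcc1 rose by 1.59.

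Downstream of the receptors the lists divided. Of 22 Gi and P2Y12 effectors 9 rose, 8 fell and 5 were not called, where 57.7% of all tested genes were called in either direction. The regulatory subunits of the phosphoinositide 3-kinase that G protein subunits activate were the largest rises, with Pik3r5 going from 2269 ± 221 to 14647 ± 906 (log2 fold change 2.69) and Pik3r6 rising by 2.21, and the receptor kinase Grk3 rose by 1.29. Of 14 tested Gq and P2Y6 effectors 2 rose and 10 fell, among them Prkca (-2.09), a protein kinase C, Plcb2 (-1.91), a phospholipase C, and Itpr3 (-1.37), a calcium release channel. P2ry6 itself thus rose while most of the listed genes of the Gq route were lower, beside 28.5% of all tested genes.

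Of 8 P2X7 effectors 2 rose and 6 fell, beside 29.2% and 28.5% of all tested genes. The inflammasome sensor Nlrp3 rose from 832 ± 119 to 2662 ± 392 (log2 fold change 1.68), whereas Nek7, its partner, fell by 1.25 and the potassium channel gene Kcnk6 fell by 1.36. Of 22 tested cAMP pathway genes, downstream of Adora2a and Adora3, 4 rose and 13 fell, beside the same 29.2% and 28.5%. The phosphodiesterase Pde4b rose from 447 ± 47.8 to 3759 ± 216 (3.07 on the log2 scale), while Pde4d (-2.40) and the adenylyl cyclase Adcy9 (-2.61) fell.

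**Figure D5:**
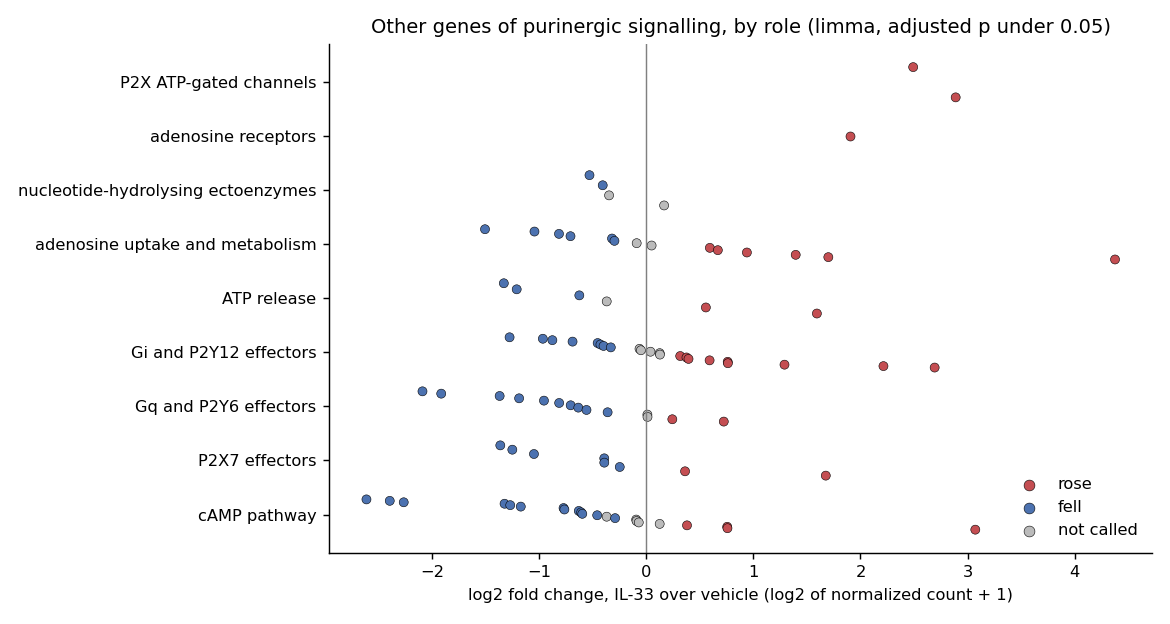
Log2 fold change of IL-33 over vehicle for each tested gene of the wider lists, 1 point per gene, coloured by call. Xdh reaches 4.38 and Pde4b 3.07, and 10 of 14 Gq and P2Y6 effectors fell.

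The labelled cell type was checked with 10 other microglial markers, all of which were tested. Of these 7 fell, 1 rose (Itgam, 0.34 on the log2 scale) and 2 were not called, Cx3cr1 at -0.13 and Aif1 at 0.13. Over all tested genes 28.5% fell and 29.2% rose. The groups overlapped for Itgam, and its call was lost with no filter (adjusted p = 0.150), with quantile scaling (0.135), with eBayes without trend and robust (0.0789) and in females alone (0.598). Their summed normalized count ran from 160570 to 176998 in vehicle mice and from 108440 to 117281 in IL-33 mice. Neutrophils and T cells also carry Adora2a: 8 neutrophil markers summed to 2.75 to 5.89 in vehicle mice and 1.01 to 3.97 in IL-33 mice, with 0 of 8 tested, and 8 T and NK cell markers summed to 0.841 to 6.41 and 5.95 to 16.2. Monocyte markers summed to 101 to 128 and 178 to 212, with 1 of 8 risen (Vcan), 1 fallen (Ccr2) and Ly6c2 and Chil3 at 3 reads or fewer over all mice. Border macrophage markers summed to 638 to 718 and 230 to 282, mostly Mrc1, which fell and was the only 1 of 8 tested. Of the scarce others, Ms4a7 had a mean of 2.13 in vehicle mice and 11.9 in IL-33 mice, and Pf4 of 2.16 and 7.54. Cd163, Lyve1, F13a1, Cbr2 and Clec10a had lower means in IL-33 mice. The part of these cells in the results was not tested. Depth ran from 6989640 reads in vehicle mouse 6 to 9323677 in vehicle mouse 5.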

How the data were processed

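The authors deposited normalized counts (a signal that is never negative) for each gene in each mouse, which the values show to be reads divided by a size factor. Tools in the submitters' processing notes are DESeq2 1.24.0, HTSeq 0.9.0, STAR 2.6.0 and FastQC, and the builds are GRCm38 and mm10. Neither annotation nor strand setting is stated. Sorted cells came from a Percoll gradient and were sequenced with a Nugen Ovation kit (RNA-Seq System V2), per the labels' protocols. A second table gives the authors' own log2 fold changes, standard errors, a score (their quotient) and p-values, per the file headers. Whole reads were recovered for 100% of values (tolerance 0.001 reads).

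Tests used limma 3.58.1 in R 4.3.3 (eBayes with trend and robust, two-sided) on log2 values (normalized count with a pseudocount of 1), fitted to treatment and sex, or with their interaction. Genes with 10 or more normalized counts in at least 4 of 8 mice were tested, and calls were made at a Benjamini-Hochberg adjusted p under 0.05. Fold changes on this scale understate those of low genes. Alternatives used edgeR 4.0.16 and DESeq2 1.42.0 on recovered reads.

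Lengths and coordinates come from GENCODE M21 (GRCm38) by Ensembl identifier, upstream sequence from RefSeq. Intervals from reads (95%, exact) cover counting error only. Genes named are the 10 members, up to 3 called genes of each wider list with the largest change and a mean of 50 or more, the 3 profiles nearest to P2ry12 and the microglial markers. Members and lists were chosen with earlier results of these data known. Other genes were named after their values were seen.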

Additional observations from a re-analysis of the deposited data

Results flagged for a closer look

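In each group of 4 mice, for 44 named genes, the highest and lowest mouse were compared with the other mice by Dixon's criterion, and 6 of 88 groups held a mouse set apart. Chance sets apart about 1 group in 20. Of the purinergic genes, P2rx7 in IL-33 mouse 4 stood at a normalized count of 1349 with the other IL-33 mice from 1477 to 1485, still below every vehicle mouse. Adora2a in vehicle mouse 7 stood at 0.915, which is 1 read, with the other vehicle mice at 0. Any nonzero value would be set apart from such zeros, so this flag, though among the 6, was fixed by 1 read. P2rx1 in vehicle mouse 6 stood at 121, with the others from 82.4 to 88.3. Xdh in IL-33 mouse 4 stood at 174 against 132 to 136 in the others. Pik3r5 stood at 13294 in IL-33 mouse 2, with the others from 14995 to 15178, and at 2597 in vehicle mouse 6, with the others from 2109 to 2192.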

How the results depend on the processing

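In each of the alternatives (pseudocounts of 0.5 and 5, no filter, a filter at 50, quantile and TMM scaling, eBayes without trend and robust, edgeR, DESeq2, no sex term, each sex alone and each mouse left out) 5 of the 10 genes were called higher and 4 lower, and the 9 called genes kept their direction and their call. Adora2a passed each filter only through the IL-33 group, and P2ry2, at most 30.5 in vehicle mice, did so at the filter of 50. Their calls there are no support for this count. P2ry12 ranged from -3.02 to -2.67 on the log2 scale, P2rx4 from 0.44 to 0.68 and Adora2a from 4.82 to 8.95. Nt5e, not called in 19 settings and below the filter at 50, ranged from -0.19 to 0.26. In females alone 31 genes of the wider lists were lower, against 48 with all mice. With the longest transcript as length, the shares of the P2 receptor sum in vehicle mice were 6.82% for P2ry6, 28.7% for P2ry13, 0.978% for P2rx4 and 2.92% for P2rx7. In IL-33 mice they were 39.7% for P2ry6, 25.8% for P2ry12, 20.1% for P2ry13 and 4.41% for P2rx4, and P2ry6 stood above P2ry12 in 4 of 4 mice. Without single mice some small counts moved. Rises among the Gq and P2Y6 effectors went from 2 to 1 without IL-33 mouse 1 or 4 or vehicle mouse 7, and among the P2X7 effectors from 2 to 1 without IL-33 mouse 3 or 4 or vehicle mouse 7 or 8. Falls among the other ectoenzymes went from 2 to 1 with the loss of Enpp1. In addition, 1 further P2X gene fell without IL-33 mouse 4 or vehicle mouse 7, when fewer mice were required to pass the filter. This was P2rx3, with 47 reads in the vehicle group and 18 in the IL-33 group. It passed that filter only through the vehicle group, where it is higher, so its fall is no support for a change. Of the other genes named, Enpp1, Itgam, Csf1r and Entpd6 lost their call in 14 comparisons in all, and Cx3cr1 fell in males alone (-0.32). Depth limits Nt5e, P2ry2 and Adora2a most. No paired analysis was possible because the groups share no mouse number.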
